A study of Mus musculus with 12 samples.

Results

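CG methylation was examined at 10 genes that mark the formative epiblast and the germ layers of gastrulation, namely Otx2, Fgf5, Pou3f1, Lef1, Eomes, Mixl1, Gata4, Gata6, Sox17 and Foxa2. They were chosen by name, and every row of the deposited levels that carried the Ensembl identifier of one of them was taken. This gave 40 gene parts (promoters, 5′ and 3′ untranslated regions (UTRs), exons and introns) of 176831 regions in the whole series, and 39 of the 40 had a level in all 12 libraries. The remaining part was the Pou3f1 promoter, listed at 0 in pESC replicate 1 alone. No promoter row was found for Gata6. The 61 CpG islands and island shores that lay within 5 kb of the 10 gene spans are described as neighbouring regions, and 25 islands and 31 shores of these had a level in all 12 libraries.

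The levels came from reduced representation bisulfite sequencing (RRBS), in which genomic DNA is cut with MspI at CCGG and cytosines that stay unconverted by bisulfite are read as methylated. There were 6 groups of 2 libraries, all labelled C57BL6. Female embryonic stem cells (ESCs) came from fertilised embryos, and parthenogenetic ESCs (pESCs) from activated oocytes without a paternal genome, and the lines carried a β-Actin-GFP transgene according to the study's methods. Primordial germ cells (PGCs) were taken on embryonic days 9.5 (E9.5) and 12.5 (E12.5), from female embryos by sorting for SSEA1 with or without CD61 according to the methods. PGC-like cells were induced from ESCs (ESC-PGCLCs) or pESCs (pESC-PGCLCs) through an epiblast-like step of 2 days with activin A and bFGF and then 4 days with BMP4, SCF, EGF and LIF, followed by sorting for SSEA1 and CD61. The epiblast-like cells were not measured, so all values below lie before or after that step. The labels do not say whether the 2 libraries of a group came from separate cultures or embryos, and the study calls them biological replicates. Each p-value sets a difference of group means against the spread between replicate libraries. That spread was pooled over the groups fitted together and moderated across regions.

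Formative epiblast is the state between naive pluripotency and gastrulation, in which cells can be directed to the germline. Otx2 and Pou3f1 are transcription factors of that state, Fgf5 is a secreted growth factor that marks the postimplantation epiblast, and Lef1 is a transcription factor of WNT signalling. Eomes, a T-box factor, and Mixl1, a homeobox factor, act in the primitive streak, and Gata4, Gata6, Sox17 and Foxa2 are transcription factors of endoderm. Genes of this kind start in CpG islands, which usually lack methylation whether or not the gene is used, whereas gene bodies and 3′ ends carry it and lose it in the germline.

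The number of regions with a level ranged from 144375 to 166476 per library, and the read depth behind each level is unknown, so that no counting interval was computed. The ESC libraries were the least alike, with a mean absolute difference of 6.16 points, against 3.29 points in pESCs and 2.19 to 2.52 points in the other groups. Identical values in a pair of replicates made up 0.117% to 0.256% of regions. The promoters of 8 germline genes, which are methylated outside the germline, had a median of 24.4% in ESCs and 22% in pESCs. It was 69.34% in PGCs of E9.5 and 45.5% in those of E12.5, and 51.47% and 46.81% in PGCLCs from ESCs and pESCs. In the libraries labelled E12.5 the 8 group means lay at 37.32% or higher, and the lowest single value was 27.27%, for Sycp3 in replicate 2.

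The 25 islands had a median length of 630 bases with 7 CCGG sites, against 596 bases and 7 sites over all 14559 islands. The sequences of 4 promoters are printed because levels of promoters and gene starts are described below. They are the 250 bases before the RefSeq start (GRCm38.p6), 5′ to 3′ on the strand of the gene, with every CG in capitals:
Fgf5: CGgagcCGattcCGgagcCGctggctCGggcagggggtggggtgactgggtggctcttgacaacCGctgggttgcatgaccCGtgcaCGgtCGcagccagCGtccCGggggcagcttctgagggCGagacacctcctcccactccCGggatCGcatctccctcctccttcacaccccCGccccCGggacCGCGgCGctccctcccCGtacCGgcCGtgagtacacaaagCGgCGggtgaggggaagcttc
Lef1: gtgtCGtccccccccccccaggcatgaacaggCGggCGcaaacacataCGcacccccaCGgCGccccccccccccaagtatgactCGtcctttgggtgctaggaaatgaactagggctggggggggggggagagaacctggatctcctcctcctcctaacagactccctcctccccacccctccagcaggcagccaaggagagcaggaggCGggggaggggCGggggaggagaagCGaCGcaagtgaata
Eomes: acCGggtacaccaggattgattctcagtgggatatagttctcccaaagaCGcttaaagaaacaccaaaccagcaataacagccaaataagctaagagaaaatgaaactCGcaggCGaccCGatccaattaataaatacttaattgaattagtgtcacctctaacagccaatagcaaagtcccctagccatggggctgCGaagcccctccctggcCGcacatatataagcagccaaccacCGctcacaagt
Foxa2: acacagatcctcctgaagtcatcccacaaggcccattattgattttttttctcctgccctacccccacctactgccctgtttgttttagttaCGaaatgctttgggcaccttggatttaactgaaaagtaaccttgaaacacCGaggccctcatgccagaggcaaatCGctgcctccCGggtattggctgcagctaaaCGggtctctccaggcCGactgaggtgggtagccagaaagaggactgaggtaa

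The Fgf5 stretch, at 5:98253934-98254183 on the plus strand, held 24 CG and 5 CCGG sites and overlapped a measured island. That of Lef1, at 3:131110047-131110296 on the plus strand, held 11 CG and no CCGG and also overlapped an island. The Eomes stretch, at 9:118477939-118478188 on the plus strand, held 8 CG and 1 CCGG, and that of Foxa2, at 2:148046970-148047219 on the minus strand, held 6 CG and 1 CCGG. The stretches of Eomes and Foxa2 overlapped no measured island. That of Otx2, not printed here, held 6 CG and no CCGG and also overlapped none. Over 27025 genes the median was 6 CG, and 46.8% of the stretches held CCGG in at least 1 place (the motif reads the same on both strands). The 4 printed stretches thus held as many CG as the median promoter or more. The promoter definition behind the deposited levels is not given in the sources used here, so the levels need not cover exactly these bases.

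The genes lay on 8 chromosomes of GRCm38. Their spans were 14:48657677-48673819 for Otx2, 5:98254184-98277030 for Fgf5, 4:124656807-124660655 for Pou3f1, 3:131110471-131224356 for Lef1 and 9:118478212-118486132 for Eomes. Those of the other 5 were 1:180693043-180697034 for Mixl1, 14:63198922-63271692 for Gata4, 18:11052064-11085635 for Gata6, 1:4490931-4497354 for Sox17 and 2:148042877-148046969 for Foxa2. Each of the 10 genes had at least 1 annotated transcript start inside a CpG island with a level.

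Promoters were low in every group. All 96 values of the 8 measured promoters lay between 1.17% and 8.79%, so that all 8 stayed under 10% in all 12 libraries, as did 53.31% of all promoters. The median of the 8 was 2.86% in ESCs and 3.06% in pESCs, 2.88% and 2.74% in PGCs of E9.5 and E12.5, and 3.15% and 2.82% in PGCLCs from ESCs and pESCs. The median over all 18456 promoters went from 3.18% in ESCs to 5.17% in E9.5 PGCs, and their upper quartile from 19.3% to 49.8%. The Lef1 promoter ranged from 1.79% to 2.67% and the Mixl1 promoter from 1.17% to 2.17% over the 12 libraries, although the bodies of both genes were among the most methylated of the set.

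**Figure D1:**
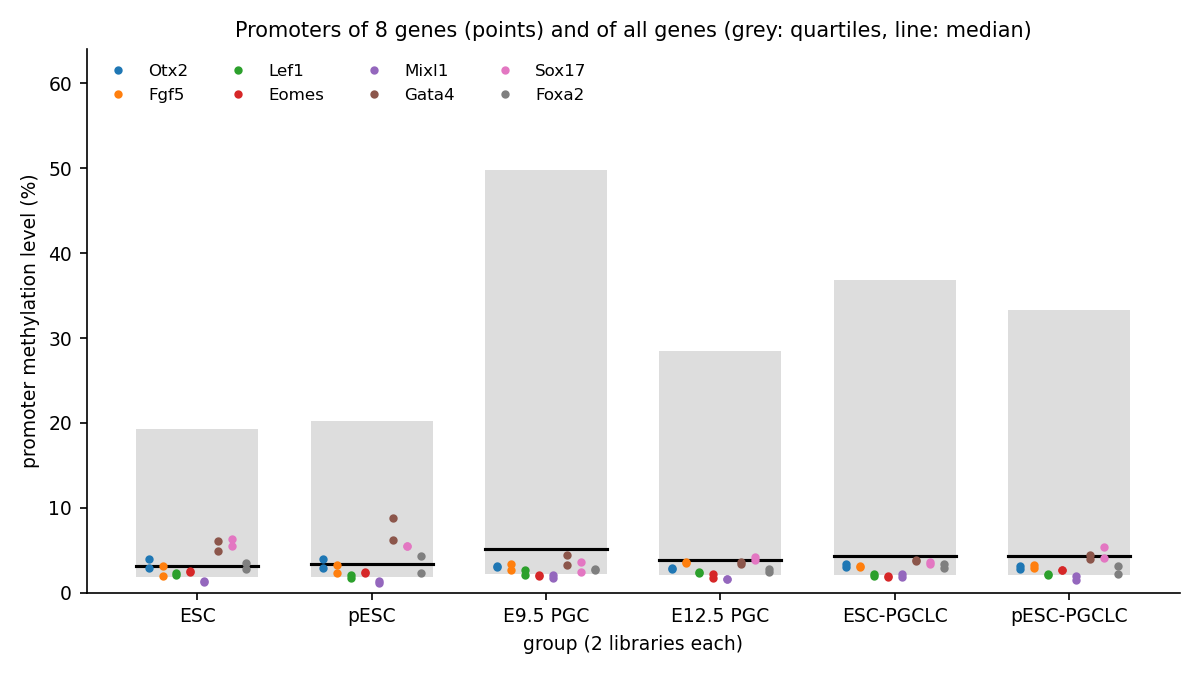
Promoter methylation level (%, vertical axis) in the 6 groups, with 1 point for each of 2 libraries per gene for 8 genes, grey bars from the lower to the upper quartile of 18456 promoters and a black line at their median. All points lie under 10%, while the upper quartile of all promoters reaches 49.8% in E9.5 PGCs.

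The starts and islands of the genes showed the same low range. Of the 10 5′ UTRs, 8 stayed under 10% in all libraries, against 81.85% of all 5′ UTRs. The other two were those of Mixl1, at up to 15.1%, and Gata4, at up to 11.5%. The Mixl1 5′ UTR has 22 bases with 2 CG, so its level rests on very few sites. Of 25 neighbouring islands, 24 stayed under 10%, against 88.24% of all islands, and the exception lay in Gata4. Of 10 exon rows 8 did, against 37.11%, and of 9 intron rows 5 did, against 19.05%. Exon rows can include the island at the start of a gene, and Pou3f1, a gene without introns, lay almost wholly in 1 island of 3415 bases with levels of 1.93% to 3.21% in its exon. Parts of 1 gene overlap and are not independent values.

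**Figure D2:**
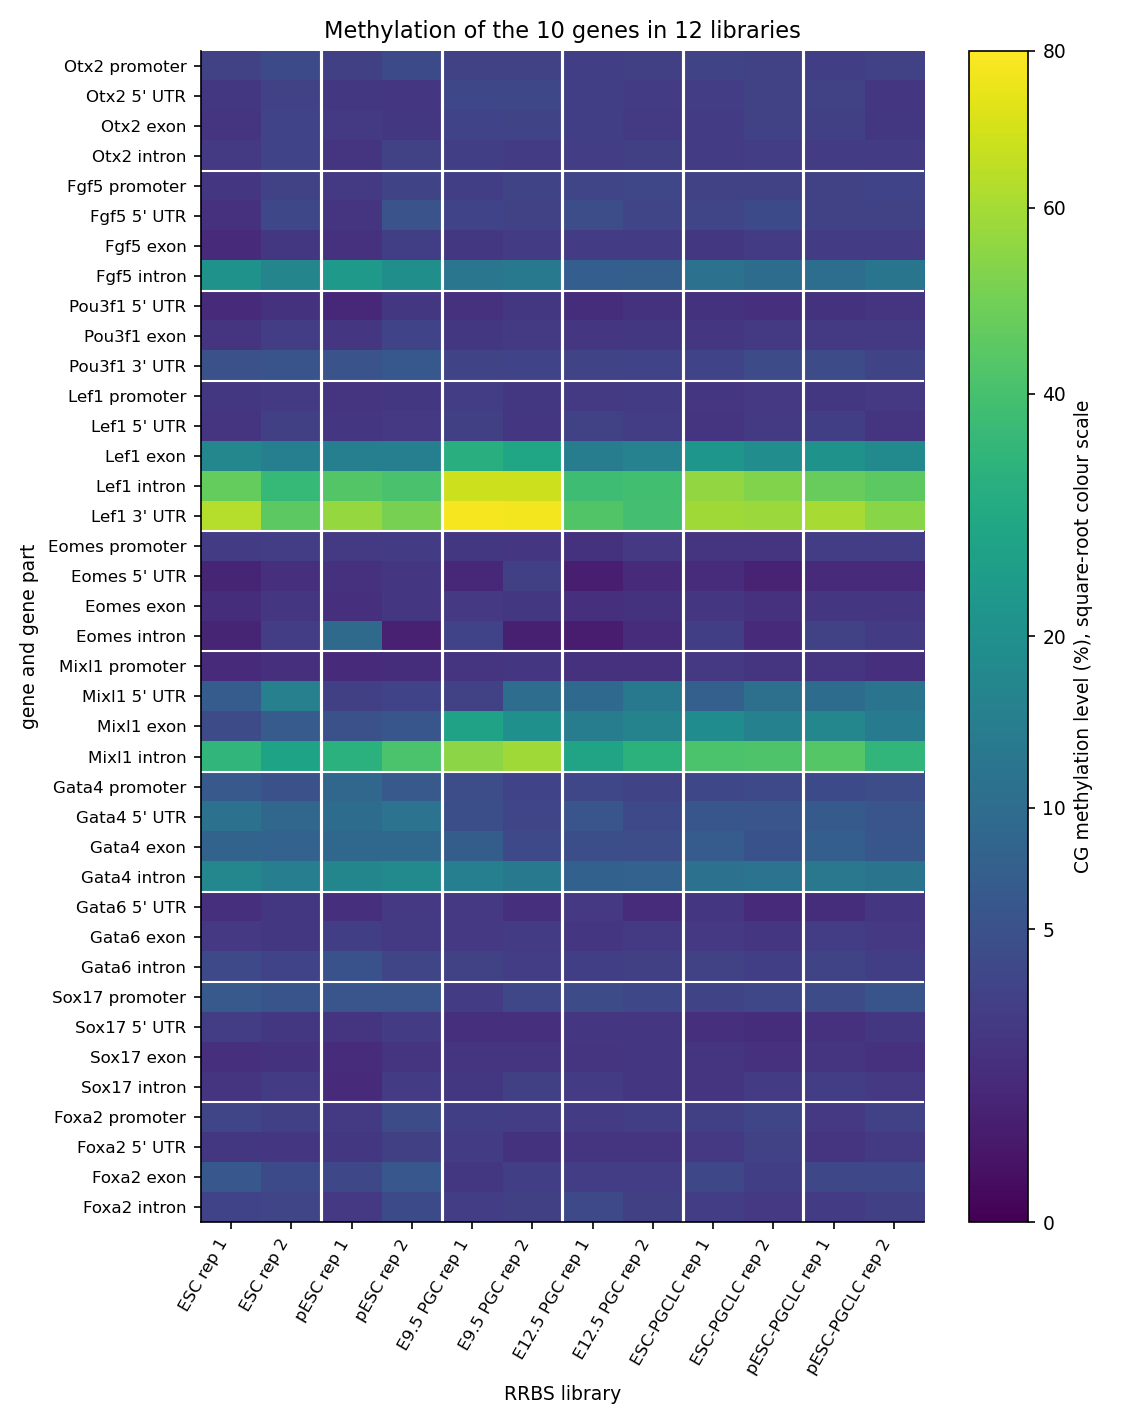
CG methylation level (%, square-root colour scale) of 39 gene parts (vertical axis) in 12 RRBS libraries (horizontal axis, 2 per group). Most rows lie under 10% throughout, and the bodies of Lef1 and Mixl1 and the introns of Fgf5 and Gata4 stand out.

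Across all 39 parts the group medians ranged from 2.68% in ESCs to 3.02% in pESCs. The median over all 133311 common regions ranged from 12.4% in ESCs to 34.6% in E9.5 PGCs. Levels above 20% in any library were reached in the 3′ UTR, intron and exon of Lef1, the intron and exon of Mixl1 and the intron of Fgf5.

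Lef1 carried the highest levels. Its 3′ UTR had 63.3% and 44.8% in ESCs and 56.9% and 50.7% in pESCs, the E9.5 libraries 77.6% and 77.5%, the E12.5 libraries 42.3% and 39.3%, and the PGCLC libraries 58.6% and 58.0% (from ESCs) and 60.5% and 54.3% (from pESCs). Its intron had 46.8% and 36.0% in ESCs and 42.8% and 40.6% in pESCs, the E9.5 libraries 68.5% and 68.1%, the E12.5 libraries 38.2% and 38.8%, and the PGCLC libraries 56.1% and 52.4% (from ESCs) and 47.2% and 45.0% (from pESCs). In both parts the E9.5 libraries were above all others and the E12.5 libraries were below all PGCLC libraries. The ESC replicates spanned the pESC replicates in both. The exon row repeated the order at a lower level, from 14.1% in E12.5 PGC replicate 1 to 31.4% in E9.5 PGC replicate 1. The intron spans 110529 bases with 137 CCGG sites, 125 of them outside islands, while the 3′ UTR holds 2 CCGG sites.

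Mixl1 showed the same order in its intron and a different one in its exon. The intron had 34.8% and 26.8% in ESCs and 32.8% and 41.2% in pESCs, the E9.5 libraries 54.6% and 59.0%, the E12.5 libraries 27.1% and 33.2%, and the PGCLC libraries 41.1% and 41.8% (from ESCs) and 43.4% and 34.7% (from pESCs). The exon had 4.32% and 6.54% in ESCs and 4.90% and 5.75% in pESCs, the E9.5 libraries 26.6% and 20.03%, the E12.5 libraries 14.4% and 15.9%, and the PGCLC libraries 18.9% and 15.5% (from ESCs) and 17.3% and 13.9% (from pESCs). All 4 stem cell libraries thus lay below all 8 germ cell libraries in the exon. The island shore at 1:180694594-180696594, which overlaps this gene body, had 14.3% to 23.4% in the stem cells and 36.9% to 64.7% in PGCs and PGCLCs, again without overlap.

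The introns of Fgf5 and Gata4 and the 5′ UTR of Gata4 were highest in the stem cells. The intron of Fgf5 had 21.2% and 16.5% in ESCs and 23.4% and 19.9% in pESCs, the E9.5 libraries 12.2% and 13.2%, the E12.5 libraries 7.08% and 7.27%, and the PGCLC libraries 11.3% and 9.90% (from ESCs) and 10.5% and 12.2% (from pESCs). The intron of Gata4 had 17.2% and 14.7% in ESCs and 16.9% and 18.4% in pESCs, the E9.5 libraries 14.8% and 13.0%, the E12.5 libraries 7.66% and 7.97%, and the PGCLC libraries 11.2% and 11.5% (from ESCs) and 12.8% and 11.8% (from pESCs). The stem cell libraries lay above all others in Fgf5, and in Gata4 they overlapped with 1 E9.5 PGC library. The 5′ UTR of Gata4 had 8.78% to 11.5% in stem cells and 3.52% to 6.48% in PGCs and PGCLCs.

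**Figure D3:**
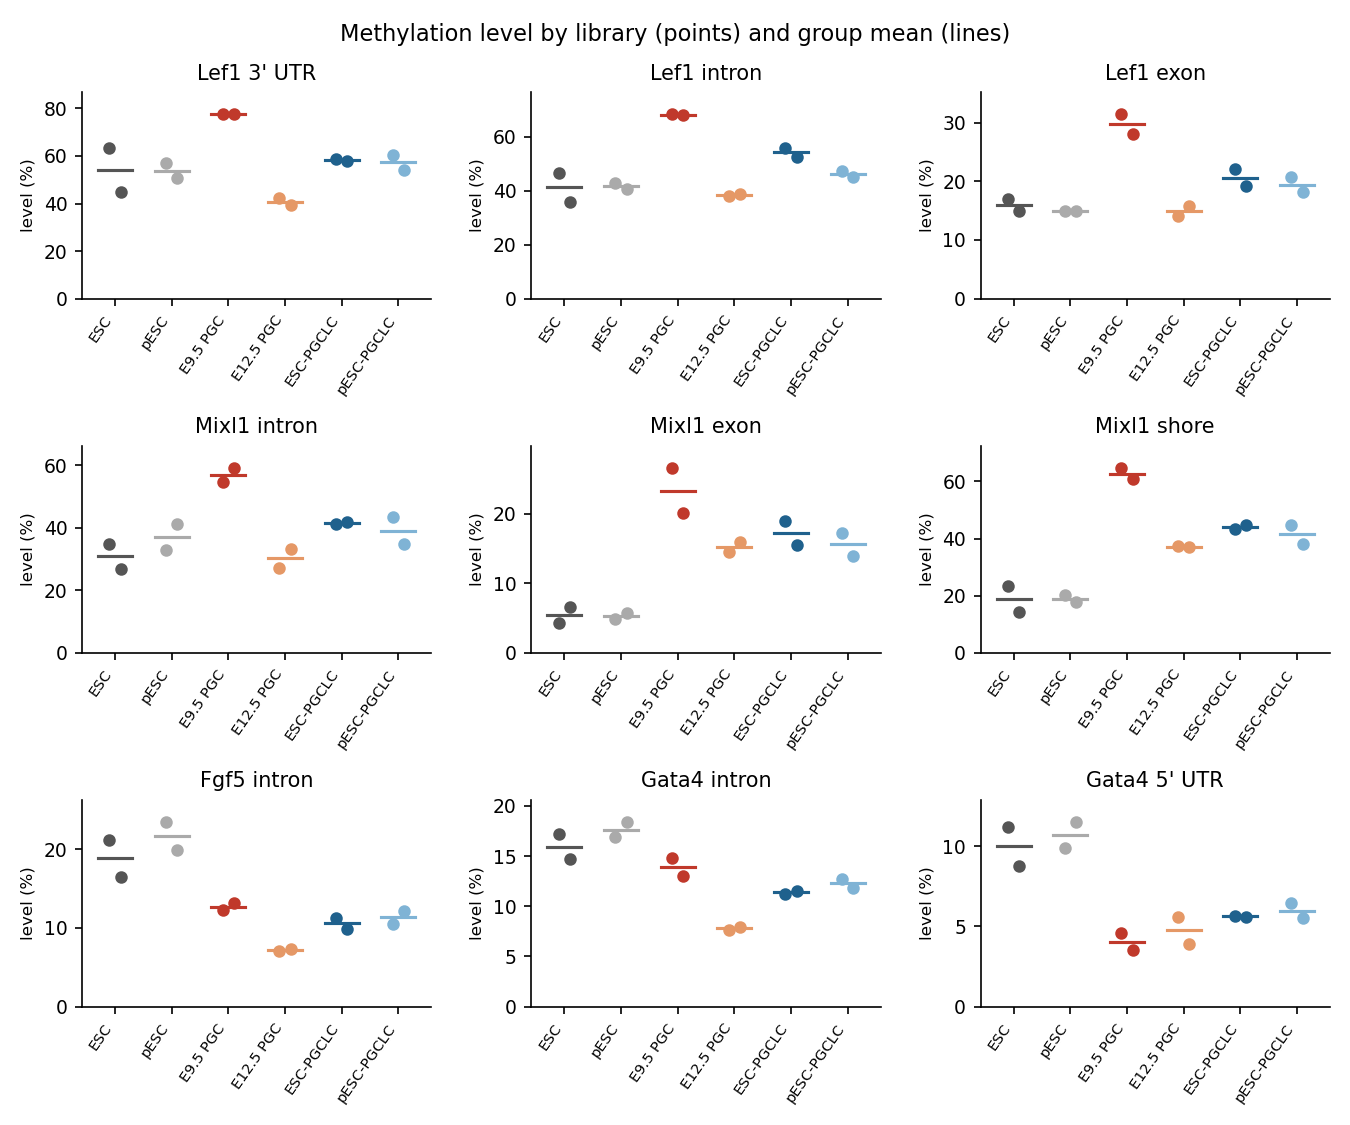
Methylation level (%, vertical axis) of 8 gene parts and 1 island shore in 6 groups (horizontal axis), with a point for each library and a line at the group mean. Lef1 and Mixl1 are highest in E9.5 PGCs, whereas the Fgf5 intron and the Gata4 5′ UTR are highest in ESCs and pESCs.

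After these levels had been seen, all regions were sorted by whether the 4 stem cell libraries lay wholly above or below the 8 PGC and PGCLC libraries, as a description without a test. Among all 133311 common regions 2.37% lay above and 17.2% lay below. Of the 39 gene parts 7 lay above, namely the exon, promoter and 5′ UTR of Gata4, the Fgf5 intron, the Foxa2 exon, the Sox17 promoter and the Pou3f1 3′ UTR, and 2 lay below, both of Mixl1. Of the 56 neighbouring regions 10 lay above and 1 lay below, and 6 of the 10 were in Gata4. The parts of Gata4 share sites, and its shore at 14:63245911-63247912 contains its island at 14:63246366-63246730. These are thus not 7 and 10 separate observations. At low levels the gaps were small. The Sox17 promoter had 5.46% to 6.33% in stem cells against 2.50% to 5.37%, and the Foxa2 exon 3.79% to 5.92% against 2.06% to 3.77%.

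Gata4 had 5 islands and 7 shores with a level in all libraries, between 15.8 and 30.8 kb downstream of the 5′ end of its span. The island that holds 2 of its transcript starts, at 14:63245178-63245911, stayed between 1.72% and 3.42%. The island at 14:63251555-63251766 had 19.6% and 10.2% in ESCs, 15.05% and 14.8% in pESCs and 3.11% to 8.47% in the other libraries. The shore at 14:63249553-63251553 had 12.7% to 21.6% in stem cells and 2.47% to 6.90% in PGCs and PGCLCs. The shore at 14:63243176-63245176 had 10.8% to 18.6% and 2.70% to 7.09%. In the shore at 14:63253681-63255681 the order was turned, with 1.89% to 3.40% in stem cells and 3.06% to 12.2% elsewhere, with 1 E12.5 PGC library inside the stem cell range. At Gata6 the shore at 18:11048641-11050642 had 10.3% to 20.9% in stem cells and 2.89% to 6.66% elsewhere, while its islands stayed under 5%.

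**Figure D4:**
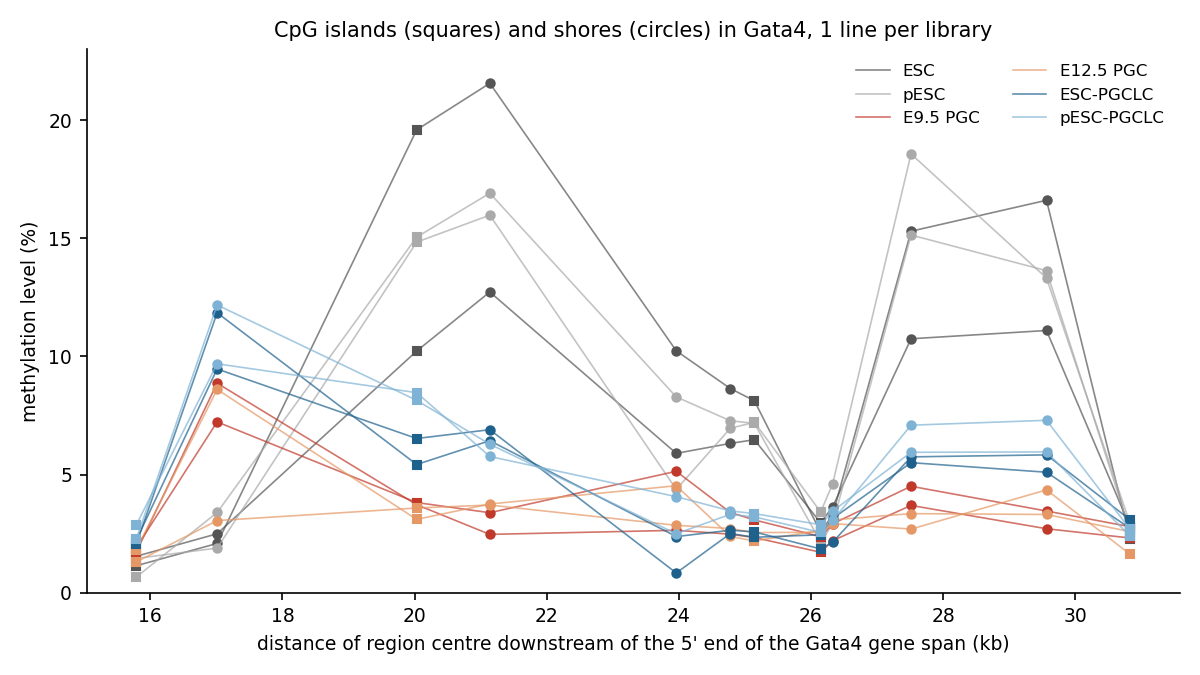
Methylation level (%, vertical axis) of 5 CpG islands (squares) and 7 shores (circles) by distance of the region's centre (kb) downstream of the 5′ end of the Gata4 gene span, with 1 line per library. Near 21.1, 27.5 and 29.6 kb the ESC and pESC libraries lie above all others, and near 17.0 kb they are among the lowest.

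Group means were compared by limma on log2 odds, log2((level + 0.01) / (1 - level + 0.01)), and p-values were adjusted by Benjamini-Hochberg over every region of the fit. A part was called when the means differed by at least 10 percentage points with an adjusted p under 0.05. Most of the gene parts lay under 10% and could therefore not fall by 10 points, so a low count of calls is partly set by the level itself. Shares and medians over all regions include repeats, islands and shores, so they are not matched to gene parts by class. Values are given as mean ± SD with n = 2 libraries per group.

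Whether parthenogenesis altered these genes was asked first in stem cells. No part was called between pESCs and ESCs, against 0% of 148012 regions. Limma gave an unadjusted p under 0.05 to 2054 of these regions and to 1 of 39 parts. That part was the 22-base Mixl1 5′ UTR, with 10.9% ± 5.92 in ESCs and 3.02% ± 0.289 in pESCs. The median difference of the 39 parts was 0.03 points. The fit rests on 4 libraries and gave an adjusted p under 0.05 to 0 of the 148012 regions. The study itself reports higher methylation of Snrpn, Impact, Mest and Sgce in pESCs than in ESCs. The lack of calls therefore cannot show that these genes were unaltered.

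During PGC development from E9.5 to E12.5, methylation fell in the bodies of Lef1 and Mixl1. The 8 promoters, all under 10%, could not meet the 10-point minimum, and their adjusted p by limma ranged from 0.178 to 0.971. Of 39 parts 4 were called, all lower at E12.5, against 49.6% of all 137202 regions, and the median difference was -0.20 points against -11.5 points. The Lef1 3′ UTR fell from 77.5% ± 0.105 to 40.8% ± 2.12, a log2 odds change of -2.27 (SE 0.14) with an adjusted p of 8.01e-05 by limma. The Lef1 intron fell from 68.3% ± 0.274 to 38.5% ± 0.401 (limma adjusted p 8.02e-05) and its exon from 29.8% ± 2.38 to 14.95% ± 1.23 (0.000680). The Mixl1 intron fell from 56.8% ± 3.16 to 30.2% ± 4.30 (limma adjusted p 0.00111), and the Mixl1 shore from 62.7% ± 2.77 to 37.1% ± 0.267 (0.000356). The introns of Gata4 and Fgf5 and the exon of Mixl1 had adjusted p under 0.05 with differences of -6.11, -5.53 and -8.14 points, and the last was called without E9.5 PGC replicate 2 (0.0162). Each library's median moved as well, by -1.12 on the log2 odds scale in this comparison. Relative to it 2 parts were called, the Lef1 intron at -0.63 and its 3′ UTR at -1.15. The calls of the Lef1 exon (adjusted p 0.524), the Mixl1 intron (0.12) and the Mixl1 shore (0.0909) were then lost, and the signs of the Gata4 and Fgf5 introns and of the Mixl1 exon turned positive.

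Both kinds of PGCLC were below E9.5 PGCs in the same 2 gene bodies. Against E9.5 PGCs, 3 parts were called in ESC-PGCLCs, all lower, with 29.8% of all regions called, and 4 in pESC-PGCLCs, all lower, with 40.3% called. The Lef1 3′ UTR had 58.3% ± 0.435 in PGCLCs from ESCs (limma adjusted p 0.00149) and 57.4% ± 4.41 in those from pESCs (0.000691), against 77.5% at E9.5. The Lef1 intron had 54.3% ± 2.57 (limma adjusted p 0.00223) and 46.1% ± 1.58 (0.000358), against 68.3%. The Mixl1 intron had 41.5% ± 0.468 (limma adjusted p 0.0215) and 39.02% ± 6.15 (0.00938), against 56.8%. The Lef1 exon differed by -9.16 points in ESC-PGCLCs and was called in pESC-PGCLCs alone, at -10.3 points (limma adjusted p 0.00620). The Mixl1 intron call in ESC-PGCLCs was lost without E9.5 PGC replicate 2 or either ESC-PGCLC library, with adjusted p of 0.101, 0.0831 and 0.0753, and that in pESC-PGCLCs without E9.5 PGC replicate 2, at 0.0518. The Lef1 exon call was lost without E9.5 PGC replicate 1 or pESC-PGCLC replicate 2, where the difference fell under 10 points, and in ESC-PGCLCs it was called without E9.5 PGC replicate 2 or ESC-PGCLC replicate 1 (0.0298 and 0.0262). Relative to the library medians the Mixl1 intron was called in neither (adjusted p 0.478 and 0.447), the Lef1 intron was not called in ESC-PGCLCs (0.21), and the Lef1 exon of pESC-PGCLCs was at 0.0188 on the log2 odds scale (0.918). The Lef1 3′ UTR was then called in both (0.0259 and 0.0322). Both comparisons share the E9.5 PGC libraries.

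Some regions were higher in PGCLCs than in E9.5 PGCs by under 10 points. At a limma adjusted p under 0.05 these were 3 of 56 neighbouring regions in ESC-PGCLCs. In pESC-PGCLCs they were 7 of 56 and 1 of 39 parts. Of all 137202 regions, 1193 and 1357 were higher at that threshold. Besides regions of Gata4 and Gata6, those of pESC-PGCLCs included an Fgf5 shore, a Sox17 island and the Foxa2 exon. The Gata4 island at 14:63251555-63251766 had 3.78% ± 0.0646 at E9.5, 5.98% ± 0.778 in PGCLCs from ESCs (limma adjusted p 0.0112) and 8.31% ± 0.229 in those from pESCs (0.000895). The shore of Gata6 had 6.59% ± 0.0975 in pESC-PGCLCs against 3.31% ± 0.585 at E9.5 (limma adjusted p 0.00608). The levels of both in the stem cells, given above, were higher still.

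Against E12.5 PGCs, ESC-PGCLCs were higher at 2 of 39 parts, with 22.8% of all regions called, and pESC-PGCLCs at 1, with 7.1% called. The Lef1 3′ UTR was higher by 17.5 points in PGCLCs from ESCs (limma adjusted p 0.00508) and by 16.6 points in those from pESCs (0.0202). The Lef1 intron was higher by 15.8 points in ESC-PGCLCs (limma adjusted p 0.00372). The 3′ UTR calls were lost in the fit of all 12 libraries, with adjusted p of 0.0681 for ESC-PGCLCs and 0.205 for pESC-PGCLCs. Relative to the library medians they were lost as well (0.0564 and 0.0958). The call in pESC-PGCLCs was also lost without any 1 of its 4 libraries, at adjusted p of 0.0588 to 0.0887. The introns of Gata4 and Fgf5 passed the adjusted p in both, with differences of 3.43 to 4.46 points.

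PGCLCs of the 2 origins were compared directly. No part was called between pESC-PGCLCs and ESC-PGCLCs, with 0.0948% of all regions called. Limma gave an unadjusted p under 0.05 to 26558 of 137202 regions and to 2 of 39 parts. The Lef1 intron had 46.1% ± 1.58 in pESC-PGCLCs against 54.3% ± 2.57 in ESC-PGCLCs, a difference of -8.14 points with an adjusted p of 0.149 by limma. The Eomes promoter had 2.68% ± 0.0157 in pESC-PGCLCs against 1.89% ± 0.0583 in ESC-PGCLCs (adjusted p 0.181 by limma).

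From stem cells to PGCLCs the Mixl1 exon rose and the Fgf5 intron fell. Of 39 parts 1 was called between ESC-PGCLCs and ESCs, with 14.6% of all 136848 regions called, and 2 between pESC-PGCLCs and pESCs, with 9.66% called. The Mixl1 exon rose from 5.43% ± 1.57 to 17.2% ± 2.42 in the ESC line (limma adjusted p 0.00439) and from 5.32% ± 0.602 to 15.6% ± 2.38 in the pESC line (0.00909). The Fgf5 intron fell from 21.7% ± 2.47 to 11.3% ± 1.19 in the pESC line (limma adjusted p 0.0288). In the ESC line it had 18.8% ± 3.29 and 10.6% ± 0.996, a difference of -8.24 points (0.0395 by limma), and was called without ESC replicate 2 alone (0.0242). The library medians moved by 1.17 and 0.92 on the log2 odds scale in the 2 lines. Relative to them the Mixl1 exon was no longer called in either (adjusted p 0.145 and 0.107), and the Fgf5 intron was at -1.98 in the pESC line. The Fgf5 call was lost without any 1 of its 4 libraries, at adjusted p of 0.0646 to 0.21, and the Mixl1 exon call of the pESC line without pESC replicate 1 (0.0666) or pESC-PGCLC replicate 1 (0.0872).

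Among the neighbouring regions 3 of 56 were called in each line. In the whole series 6.3% of islands and 17.1% of shores were called in the ESC line, and 5.28% and 12.6% in the pESC line. The Mixl1 shore rose from 18.9% ± 6.46 to 43.9% ± 1.01 in the ESC line and from 18.9% ± 1.78 to 41.5% ± 4.76 in the pESC line (limma adjusted p 0.00780 and 0.0167), and neither call held relative to the library medians (0.0896 and 0.0723). The Gata4 shore at 14:63249553-63251553 fell from 17.1% ± 6.24 to 6.67% ± 0.329 and from 16.4% ± 0.654 to 6.03% ± 0.368 (limma adjusted p 0.0177 and 0.0171). The other called regions were the Gata6 shore in the ESC line, from 15.6% ± 7.46 to 4.65% ± 1.03 (0.0190, and 0.0502 with an offset of 0.1), and the Gata4 shore at 14:63243176-63245176 in the pESC line, from 16.9% ± 2.43 to 6.52% ± 0.812 (0.0113). In the ESC line, 8 neighbouring regions lower in PGCLCs and 2 higher had adjusted p under 0.05 at any size of difference, and 5 and 2 did in the pESC line. Of all regions 17.7% passed that threshold in the ESC line and 12.1% in the pESC line, and of the 24216 and 16550 that passed, 22027 and 14798 were higher. All 8 and all 5 lay in or beside Gata4 or Gata6. They are not separate regions, because the Gata4 shore at 14:63245911-63247912 contains the island at 14:63246366-63246730. Both are counted in each line. That shore also overlaps the shore at 14:63246730-63248731, counted in the ESC line. The Gata4 and Gata6 calls of the ESC line were lost without ESC-PGCLC replicate 1 or 2 or without ESC replicate 1, and its Mixl1 call without ESC-PGCLC replicate 2 (limma adjusted p 0.0527). In the pESC line the Mixl1 call and that of the Gata4 shore at 14:63249553-63251553 were lost without any 1 library (0.059 to 0.132), and the other Gata4 call held without pESC replicate 1 alone. The ESC replicates lay far apart in these regions.

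Whether induction changed the genes differently by origin was tested as an interaction. No part was called, with 0.0365% of all regions called. Limma gave an unadjusted p under 0.05 to 4053 of 136848 regions and to 1 part of 39. It was again the Mixl1 5′ UTR, with an interaction of 9.52 points (unadjusted p 0.0122, adjusted p 1 by limma).

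**Figure D5:**
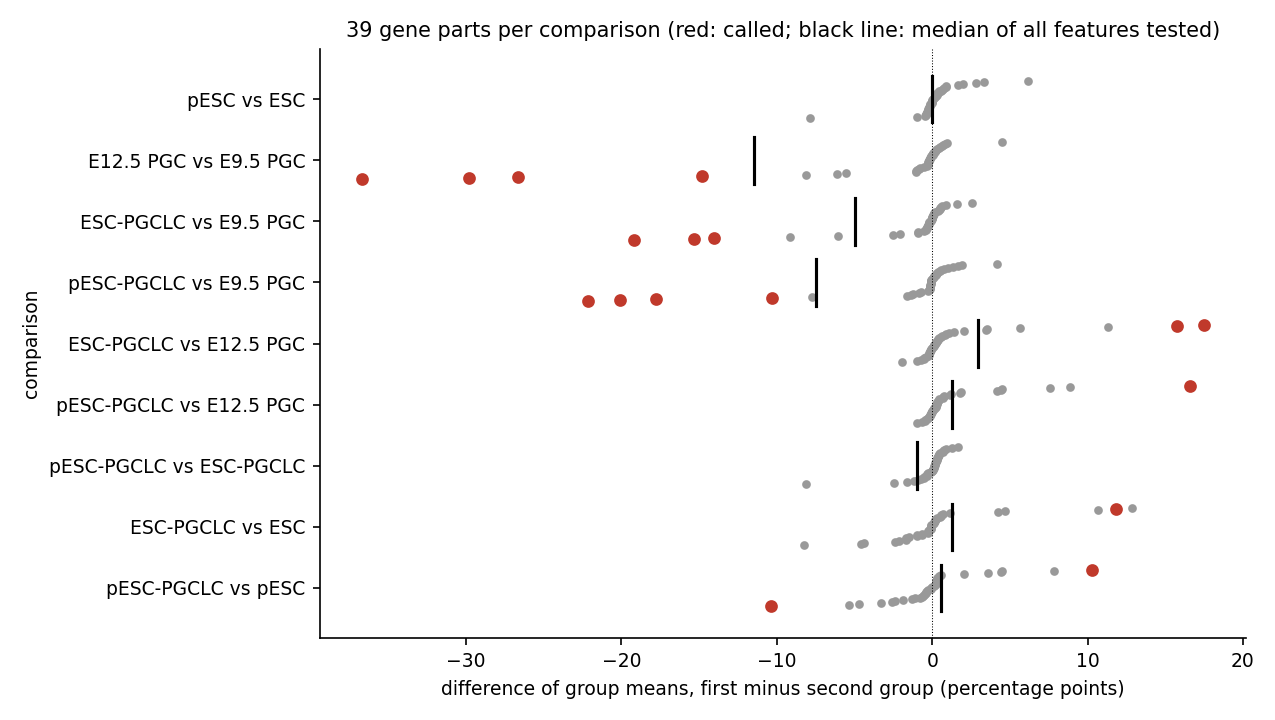
Difference of group means (percentage points, first minus second group, horizontal axis) for 39 gene parts in 9 comparisons, with called parts in red, the others in grey and the median of all regions tested as a black line. Most parts lie near 0 while the median of all regions reaches -11.5 points, and the red points are parts of Lef1, Mixl1 and Fgf5.

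Other genes of the same pathways were taken as lists. Of 53 tested parts of 15 formative and primed epiblast regulators, 11 were called between E12.5 and E9.5 PGCs, all lower, against 49.6% of all regions, with a median difference of -0.83 points. Of 118 parts of 31 epiblast signalling genes 34 were called, all lower (median -1.86 points), of 63 parts of 19 primitive streak and mesoderm regulators 10 (-0.58 points), and of 56 parts of 16 endoderm regulators 20 (-2.75 points), each a smaller share than that of all regions. Their medians lay closer to 0 than the -11.5 points of all regions. The lists hold gene parts alone, whereas all regions include repeats, and the classes were not matched. Of all 5′ UTRs 7.58% were called, of exons 47.6%, of introns 64% and of repeats 84.9%. Of all promoters 32.2% were called. In these lists 1 of 12, 3 of 27, 1 of 13 and 2 of 13 promoters were, in the same order. Among them was that of Hnf4a, a liver and visceral endoderm factor. The Hnf4a promoter fell from 58.8% and 61.5% in E9.5 libraries to 18.8% and 14.5% in E12.5 libraries (limma adjusted p 0.000109). The promoter of Mesp2, a somite segmentation factor, fell from 41.0% and 34.8% to 1.89% and 0 (limma adjusted p 0.000210). That of Smad3, a transducer of NODAL and activin signals, fell from 39.5% and 32.9% to 15.9% and 17.2% (limma adjusted p 0.000635).

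From stem cells to PGCLCs the epiblast regulators moved in both directions. In the ESC line 12 of their 53 parts rose and 1 fell, and in the pESC line 10 rose and 1 fell, against 14.6% and 9.66% of all regions called. Of their 12 promoters 3 were called in each line, 2 of them higher, against 12.9% and 9.23% of all promoters. The promoter of Dnmt3b, the de novo methyltransferase of the epiblast, fell from 13.6% and 12.7% in ESCs to 1.86% and 1.23% in the PGCLCs made from them (limma adjusted p 0.000382). In the pESC line it fell from 14.3% and 16.3% to 3.97% and 2.75% (limma adjusted p 0.00145). Of 14 streak and mesoderm promoters 2 were called in each line, 1 of them higher. The promoter of Foxc2, a mesoderm factor, fell from 29.7% and 16.0% to 6.37% and 6.03% and from 25.8% and 23.03% to 7.63% and 8.17% (limma adjusted p 0.00788 and 0.0152). Of the other lists, 10 of 111 signalling parts, 6 of 66 streak parts and 4 of 54 endoderm parts were called in the ESC line. These shares lay below the 14.6% of all regions. In the pESC line 5, 6 and 1 were called. There the share of streak parts was near the 9.66% of all regions, and the others were lower.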

How the data were processed

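RRBS was measured in 12 libraries of 6 groups, taken from the sample titles. The authors aligned the reads with Bismark 0.16.3 and Bowtie2 to mm10 (per the submitters' processing notes) and corrected levels for non-conversion (per the study's methods), and deposited for each region a level as a fraction from 0 to 1, printed here as percent. Coverage minimum and promoter definition are not given in the sources used here, and the deposited levels carry no counts, so read depth is unknown. All island starts fell on CG in GRCm38 when counted from 0; islands are printed counted from 1 and shores as deposited. Gene names and spans came from GENCODE M21.

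Levels were compared with limma 3.58.1 in R 4.3.3 (lmFit, eBayes, two-sided) with an offset of 0.01 on regions with a level in every library of the fit, and tested on simulated data, where the fit of 4 stem cell libraries recovered fewer small planted changes than the others. A fit of 8 libraries served the PGC and PGCLC comparisons, and another of 8 those of stem cells with PGCLCs. A lone library in leave-one-out fits was assumed to vary like the others. The genes and lists were chosen with earlier results of these data known. Named list promoters were those called with the largest differences, up to 3 per list and comparison, of which a part is printed; the most alike genes were the 3 with the smallest root mean square difference over 12 libraries. Python 3.11.15, pandas 2.3.3, numpy 2.4.6, matplotlib 3.10.9 and samtools 1.23.1 were used.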

Additional observations from a re-analysis of the deposited data

How the results depend on the processing

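The alternatives were untransformed levels, offsets of 0.1 and 0.001, all 12 libraries in 1 fit, a replicate block, median centring of each library, a mean level of at least 5%, gene parts alone, the adjusted p alone and leaving out each library. Of 134 recomputed counts of called gene parts, 109 stayed within 1.5 times the main count and 25 did not. The 109 include all those of comparisons without a called part, whose counts never changed, and these do not bear on the stability of a call. Median centring gave 2 in place of 4 between E12.5 and E9.5 PGCs, 1 in place of 3 for ESC-PGCLCs and 2 in place of 4 for pESC-PGCLCs against E9.5 PGCs, 1 in place of 2 and 0 in place of 1 against E12.5 PGCs, and 0 in place of 1 and 1 in place of 2 against ESCs and pESCs. The adjusted p alone, which drops the 10-point minimum, gave 7 between E12.5 and E9.5 PGCs, 7 for pESC-PGCLCs against E9.5 PGCs, 5 and 3 for ESC-PGCLCs and pESC-PGCLCs against E12.5 PGCs, and 3 for ESC-PGCLCs against ESCs. The fit of all 12 libraries gave 1 and 0 against E12.5 PGCs, and 2 for ESC-PGCLCs against ESCs; the cause was not tested. Leaving out single libraries gave 4 to 5 called parts between E12.5 and E9.5 PGCs, 2 to 3 for ESC-PGCLCs and 3 to 4 for pESC-PGCLCs against E9.5 PGCs, 2 to 2 and 0 to 0 against E12.5 PGCs, 1 to 2 for ESC-PGCLCs against ESCs and 0 to 1 for pESC-PGCLCs against pESCs, with fewer samples in each fit.

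Centring takes a shift off every region, so differences smaller than the shift change sign. Among the regions with an adjusted p under 0.05 before centring, those that turned positive on the log2 odds scale between E12.5 and E9.5 PGCs were the Eomes island (0.82) and shore (0.78), the introns of Fgf5 (0.28) and Gata4 (0.26) and the Mixl1 exon (0.39), and for pESC-PGCLCs against E9.5 the exons of Lef1 (0.0188) and Mixl1 (0.12) and the Otx2 5′ UTR (0.34). The shift was -0.66 and -0.80 for ESC-PGCLCs and pESC-PGCLCs against E9.5 PGCs and 0.45 and 0.31 against E12.5 PGCs. Among all regions called, the share that was higher went from 93.8% to 72.6% for ESC-PGCLCs against ESCs, from 92.3% to 71.1% for pESC-PGCLCs against pESCs, from 95.95% to 76.1% for pESC-PGCLCs against E12.5 PGCs and from 46.9% to 70.5% for pESC-PGCLCs against ESC-PGCLCs.

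With the replicate block the counts were 4, 3, 4, 2 and 1 among PGCs and PGCLCs, in the order above, and 1 and 2 against ESCs and pESCs, the same as without it. The numbers share no stated origin. Same-numbered libraries deviated together in ESCs and pESCs (correlation 0.518 over regions) and in E9.5 PGCs and ESC-PGCLCs (0.183), and between -0.0602 and 0.0804 in the other pairs of groups. Comparisons with no called part kept a count of 0 under every alternative run. Read depth, which sets the precision of each level, is unknown.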

Other observations

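The genes whose levels over the 12 libraries were most like those of the 3 most variable gene parts are given as a description. Among 3715 3′ UTRs, those of Sh3pxd2a, Pagr1b and Trabd came closest to that of Lef1, with root mean square differences of 2.41, 2.62 and 2.72 points. Among 18556 introns, those of Adora1, Mgat5 and Lnx2 came closest to that of Lef1, at 1.40, 1.56 and 1.56 points, and those of Slc20a2, Xylb and Kctd17 to that of Mixl1, at 3.35, 3.38 and 3.42 points. The mean level of the Adora1 intron was 41.4% in ESCs, 53.3% in ESC-PGCLCs, and 68.8% and 37.3% in PGCs of E9.5 and E12.5.

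The Eomes intron, with 10 CCGG sites, had 9.48% in pESC replicate 1 and between 0.510% and 3.21% in the other 11 libraries. The Eomes shore beside it, at 9:118479486-118481487, had 7.77% in the same library and 0.544% to 3.72% in the others.

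The order in which stem cells lay wholly above PGCs and PGCLCs was seen in 5.73% of island shores and in 1.72% of islands over all regions, against 2.66% of exons and 2.72% of introns.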
